A study of Homo sapiens with 9 samples.

Results

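Chromatin accessibility was described at the genes of 4 NFAT transcription factors, *NFATC1*, *NFATC2*, *NFATC3* and *NFAT5*, and at *RCAN1*, which encodes an inhibitor of the phosphatase calcineurin. All were chosen by name, with earlier results of these data known. FAIRE-seq (formaldehyde-assisted isolation of regulatory elements, which recovers DNA that is not bound in nucleosomes) had been run on Jurkat Clone E6-1 cells, a human T cell leukaemia line, and the deposited peaks of 4 libraries were merged wherever they overlapped or touched. Of the 40703 regions this gave on chromosomes 1 to 22, X and Y, 38 had at least 1 base in the gene record or within 50 kb of the transcription start site (TSS) of 1 of these 5 genes. Their numbers were 11 at *NFATC1*, 12 at *NFATC2*, 9 at *NFATC3*, 4 at *NFAT5* and 2 at *RCAN1*.

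The series holds 9 samples with 1 library each, of which 4 had a peak list in use; 5 were not analysed here. By their labels, the lists come from NS (non-stimulated) and SW (stimulus withdrawal) cells pre-treated with DMSO, the vehicle, and from NS and SW cells pre-treated for 1 h with 15 uM rottlerin, a protein kinase C inhibitor. The labels give SW cells 4 h of PMA and ionomycin, then a wash and 1 day of culture without stimulus, whereas the study's methods give a shorter stimulation. The total input was an equal mixture of DNA from unstimulated and stimulated cells. The study's methods instead describe peaks pooled from the DMSO-treated cells in the NS, ST (stimulated), SW and RS (re-stimulated) states, and the total number of regions after merging the lists used here, 28 on unplaced, unlocalised or mitochondrial sequence included, equals the total in those methods. Which cells 3 of the lists describe is therefore uncertain. Each is called below by its label, and no difference between lists is ascribed to rest or to rottlerin. Each list is 1 library of 1 line, so no value has a replicate and no p-value is given.

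NFATC1, NFATC2 and NFATC3 are held in the cytoplasm by phosphorylation. A rise in calcium, which ionomycin brings about, activates calcineurin, which dephosphorylates them so that they enter the nucleus and bind DNA, in T cells often beside AP1, a dimer of Fos and Jun proteins that PMA induces. NFAT5 has a related DNA-binding domain but responds to osmotic stress and lacks the calcineurin docking region. *RCAN1* is itself a known target of NFAT, through a promoter inside the gene, and its product restrains calcineurin.

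The following sequences are the central bases, at most 300, of 7 regions on which the description turns: the widest region, the *NFATC2* region found in every list, a region holding both an NFAT and an AP1 sequence, 4 of those with repeated NFAT or AP1 sequences, and the *RCAN1* pair. They were read from the plus strand of GRCh37 (hg19), and names give the distance of the region's mid-point from the TSS of the gene record, negative upstream. Capitals mark the NFAT core TGGAAA, the AP1 sequence TGANTCA and the ETS sequences CCGGAA and AGGAAG on either strand. N stands for any base.
NFATC1 +128 kb, chr18:77283961-77284260: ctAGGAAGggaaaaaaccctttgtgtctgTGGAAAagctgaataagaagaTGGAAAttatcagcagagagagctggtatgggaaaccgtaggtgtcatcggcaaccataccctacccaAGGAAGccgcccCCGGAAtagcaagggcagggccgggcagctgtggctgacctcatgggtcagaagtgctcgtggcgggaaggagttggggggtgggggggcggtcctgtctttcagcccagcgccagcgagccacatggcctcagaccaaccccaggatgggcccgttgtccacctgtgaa
NFATC2 +21.4 kb, chr20:50157830-50158129: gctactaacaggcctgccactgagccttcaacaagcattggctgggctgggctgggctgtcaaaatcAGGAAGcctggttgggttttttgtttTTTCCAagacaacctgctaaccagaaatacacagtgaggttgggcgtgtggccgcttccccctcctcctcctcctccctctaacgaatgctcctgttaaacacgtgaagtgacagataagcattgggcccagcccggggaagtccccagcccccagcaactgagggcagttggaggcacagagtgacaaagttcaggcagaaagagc
NFATC2 +34.0 kb, chr20:50145268-50145512: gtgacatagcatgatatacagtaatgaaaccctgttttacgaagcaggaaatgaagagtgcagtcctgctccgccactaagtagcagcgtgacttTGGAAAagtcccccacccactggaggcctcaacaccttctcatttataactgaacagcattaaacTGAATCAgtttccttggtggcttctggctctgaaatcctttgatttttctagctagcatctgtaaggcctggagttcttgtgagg
NFATC3 -24.8 kb, chr16:68093742-68094041: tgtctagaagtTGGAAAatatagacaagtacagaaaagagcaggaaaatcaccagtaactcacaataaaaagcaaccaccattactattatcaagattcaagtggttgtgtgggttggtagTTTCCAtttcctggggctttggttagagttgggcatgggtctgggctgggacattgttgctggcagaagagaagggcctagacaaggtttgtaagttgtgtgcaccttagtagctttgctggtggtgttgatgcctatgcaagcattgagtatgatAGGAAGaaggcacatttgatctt
NFAT5 -34.3 kb, chr16:69564562-69564861: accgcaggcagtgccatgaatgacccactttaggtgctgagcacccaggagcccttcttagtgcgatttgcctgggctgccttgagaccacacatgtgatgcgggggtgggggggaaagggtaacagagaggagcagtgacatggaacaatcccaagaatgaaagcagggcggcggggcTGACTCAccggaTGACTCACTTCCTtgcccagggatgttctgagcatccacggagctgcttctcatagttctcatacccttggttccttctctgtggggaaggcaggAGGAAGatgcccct
RCAN1 -15.6 kb, chr21:36002936-36003137: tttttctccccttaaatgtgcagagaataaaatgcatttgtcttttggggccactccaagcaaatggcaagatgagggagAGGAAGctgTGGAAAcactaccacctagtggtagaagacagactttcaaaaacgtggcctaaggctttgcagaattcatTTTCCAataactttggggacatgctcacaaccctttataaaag
RCAN1 -0.247 kb, chr21:35987528-35987791: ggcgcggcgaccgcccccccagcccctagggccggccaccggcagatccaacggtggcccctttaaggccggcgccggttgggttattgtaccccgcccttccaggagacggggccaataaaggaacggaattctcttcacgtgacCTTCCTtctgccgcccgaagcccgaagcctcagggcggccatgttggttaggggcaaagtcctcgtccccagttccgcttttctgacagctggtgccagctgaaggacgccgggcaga

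Regions at these genes were found mostly outside the list labelled NS DMSO. A peak of that list was present in 9 of the 38 regions (23.7%), against 46.5% of all merged regions. The lists labelled SW DMSO, NS rottlerin and SW rottlerin had a peak in 13, 22 and 34 of them (34.2%, 57.9% and 89.5%), against 49.3%, 58.4% and 74.5% of all regions. Both DMSO-labelled lists thus had a peak in a smaller share of these regions than of all merged regions. For the list labelled NS rottlerin the shares were close, and for SW rottlerin the share was larger at these genes. These are shares of merged regions and do not measure how densely a list covers the genes. The 29 regions without an NS DMSO peak made up 76.3%, against 53.5% of all regions. A peak in all 4 lists was found in 5 (13.2%, against 26.6%).

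**Figure D1:**
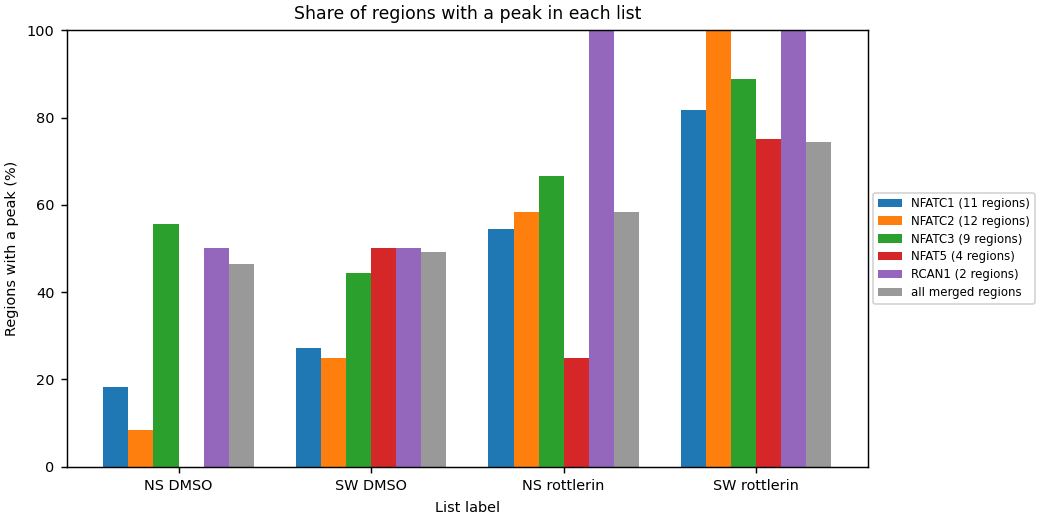
Share of merged regions (%) with a peak in each of the 4 lists, 1 library each, for every gene and for all 40703 merged regions. No *NFAT5* region has an NS DMSO peak, and all 12 *NFATC2* regions have a peak in the list labelled SW rottlerin.

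The lists differ in length, holding 18977, 20132, 23835 and 30409 peaks in the order above. Sequencing depth is unknown from these lists, and a region without a peak is one that was not called at the depth of that library. When every list was cut to its 18977 highest-scoring peaks, 31 regions were left at the 5 genes, and 22 of them (71%) had no NS DMSO peak, against 41.5% of all regions. *NFATC2* was the gene that changed most, from 12 regions to 6.

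The commonest patterns at the 5 genes were a peak in both rottlerin-labelled lists and neither other list, in 11 regions (28.9%, against 8.44% of all regions), and a peak in the list labelled SW rottlerin alone, in 10 (26.3%, against 18.2%). With lists of equal length these fell to 6 regions (against 4.22%) and 8 (against 7.85%). A further 4 regions, 1 at each NFAT gene, had peaks in both SW-labelled lists and no other (10.5%, against 6.26%). Peaks in every list except NS DMSO were seen in 2 (5.26%, against 7.08%), and a peak in NS DMSO alone in 1 (2.63%, against 7.83%). Counted by number of lists, 13 regions were in 1 list (all regions 38.8%), 15 in 2 (20.4%) and 5 in 3 (14.1%).

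**Figure D2:**
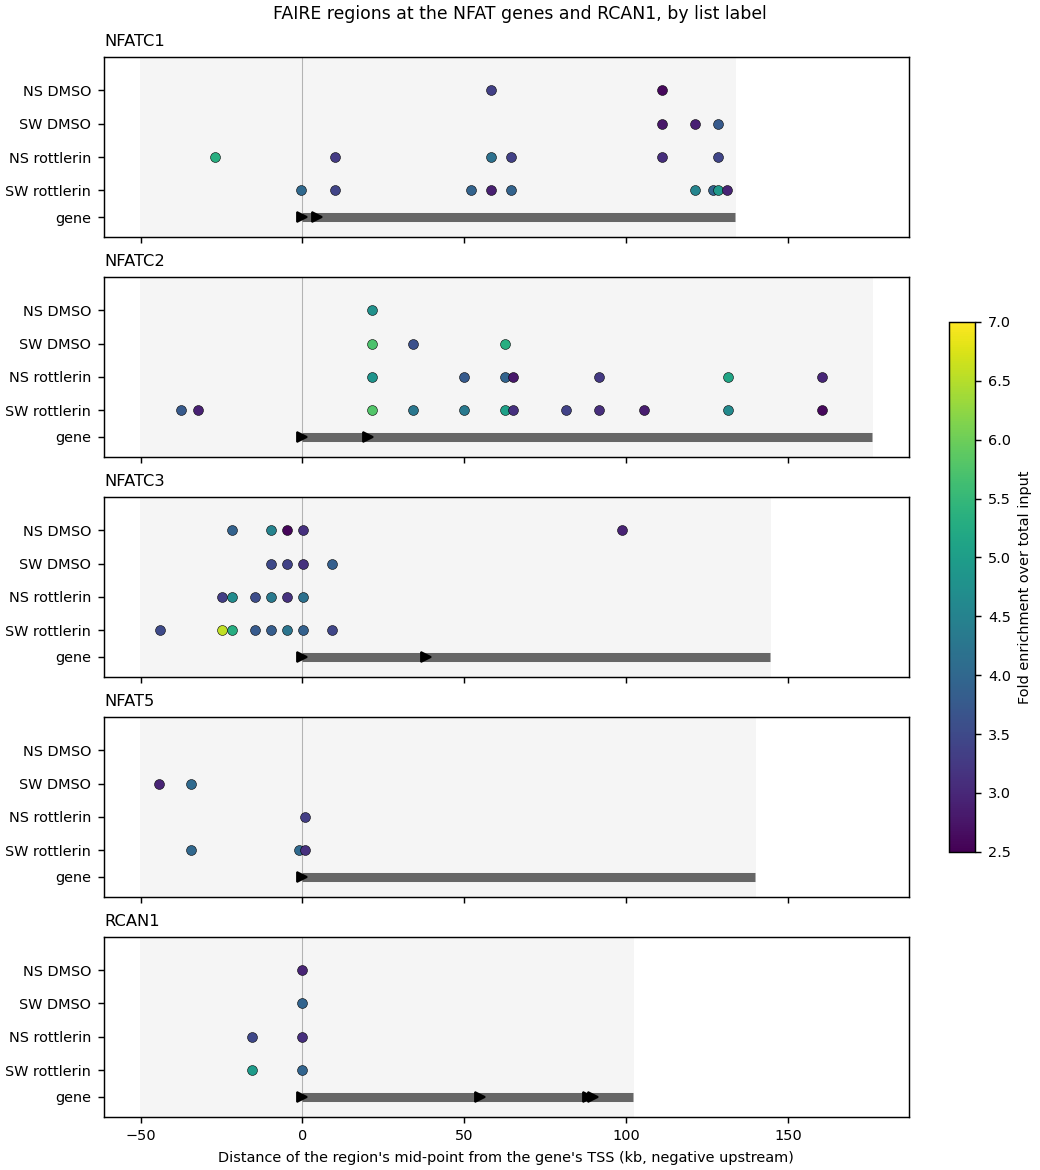
Position of each region (kb from the TSS of the gene record, in the direction of transcription) by list, coloured by fold enrichment over the total input. Grey bars are gene bodies, arrowheads are groups of coding transcript starts, and the shading spans 50 kb either side of the TSS and the gene body. Regions fill the bodies of *NFATC1* and *NFATC2*, lie at or upstream of the start of *NFATC3*, *NFAT5* and *RCAN1* with 2 exceptions at *NFATC3*, and are fewest in the list labelled NS DMSO.

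The density of regions was 5.996 per 100 kb of window at *NFATC1*, 5.31 at *NFATC2*, 4.63 at *NFATC3*, 2.11 at *NFAT5* and 1.32 at *RCAN1*, against a median of 2.12 over 20163 protein-coding genes (quartiles 1.00 and 4.00). *NFATC1*, *NFATC2* and *NFATC3* thus lay above the upper quartile, while *NFAT5* lay at the median and *RCAN1* below it. Mid-points fell in introns in 27 of the 38 regions (71.1%, against 55.8% of all regions), which follows in part from windows that take in whole long genes. Intergenic sequence held 4 (14.3% of all regions), a promoter 3 (9.08%), a 3′UTR 2 (2.27%), a 5′UTR 1 (5.6%), a further exon 1 (6.93%) and the upstream class 0 (6.12%). A start of any annotated transcript lay within 1 kb of the mid-point in 8 regions (21.1%, against 32%). The GC content over 50% and CpG ratio over 0.6 of a CpG island were found in 3 (7.89%, against 21%). Of these 27, 20 (74.1%) had no NS DMSO peak, against 58.4% of all intronic regions, and 8 (29.6%) had both rottlerin-labelled peaks alone, against 9%.

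*NFATC1* (ENSG00000131196, chr18:77155856-77289325, plus strand) encodes the factor that activated T cells induce from 1 of its own promoters. Its 11 regions included 2 with an NS DMSO peak, 3 with SW DMSO, 6 with NS rottlerin and 9 with SW rottlerin. The first promoter, where 6 coding transcripts start, was covered by a region of 1005 bp (chr18:77154973-77155977) that had a peak only in the list labelled SW rottlerin, with a fold enrichment of 4.03. The second group of starts, of 5 coding transcripts between chr18:77160274 and chr18:77160392, had no region within 1 kb, the nearest being 4.30 kb away.

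Most *NFATC1* regions lay inside the gene, and 5 of them in intron 9 of its canonical transcript, which has 10 exons. Some were near starts of other *NFATC1* transcripts, for which no coding sequence is defined. The mid-points at +128 kb, +131 kb and +52.0 kb lay 187, 231 and 436 bp from such a start. The region at +128 kb (chr18:77283433-77284790, 1358 bp, the widest of the 38) had no NS DMSO peak and fold enrichments of 3.76 in SW DMSO, 3.43 in NS rottlerin and 4.91 in SW rottlerin. The called stretch itself differed in width, at 694, 174 and 1358 bp. Its centre, printed above, held 2 NFAT and 3 ETS sequences. In the same intron the region at +121 kb (chr18:77276518-77277666) had peaks in both SW-labelled lists, of 2.91 and 4.55, and in neither NS-labelled list. Its edge lay within 1 kb of the start of an unnamed gene, ENSG00000279397, and its mid-point 1035 bp from it. The regions at +127 kb (chr18:77282465-77282750) and +131 kb (chr18:77286802-77286975) were found in SW rottlerin alone, at 3.94 and 2.95.

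The *NFATC1* regions with an NS DMSO peak followed another order. At +111 kb (chr18:77266663-77267352, also in intron 9) the fold enrichment was 2.60 in NS DMSO, 2.78 in SW DMSO and 3.09 in NS rottlerin, and no SW rottlerin peak was present although that list is the longest. At +58.2 kb (chr18:77213844-77214199, intron 6) it was 3.35 in NS DMSO, 4.16 in NS rottlerin and 2.90 in SW rottlerin, with no SW DMSO peak. Both regions thus had their highest value in the list labelled NS rottlerin. Of the remaining 4, those at +10.1 kb (chr18:77165821-77166046, intron 1) and +64.3 kb (chr18:77220068-77220326, intron 6) had peaks in the rottlerin-labelled lists only, of 3.29 and 3.41 and of 3.37 and 3.91. That at +52.0 kb (chr18:77207718-77207950, intron 3) had only an SW rottlerin peak, of 3.91. The region at -26.9 kb (chr18:77128805-77129025), inside intron 26 of the neighbouring gene *ATP9B*, had only an NS rottlerin peak, which at 5.33 was the highest value in the *NFATC1* window.

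*NFATC2* (ENSG00000101096, chr20:50003494-50179370, minus strand) encodes the NFAT protein that resting T cells already hold. It had 12 regions, 10 of them inside the gene, and every one had a peak in the list labelled SW rottlerin. The other lists covered 1 region (NS DMSO), 3 (SW DMSO) and 7 (NS rottlerin). With lists of equal length, 6 of the 12 SW rottlerin peaks were kept, so the count rests in large part on low-scoring peaks of the longest list.

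The single *NFATC2* region found in all lists, at +21.4 kb (chr20:50157633-50158328), lay in intron 1 of the canonical transcript, its mid-point 1278 bp inside that transcript's start at chr20:50159258, where 3 coding transcripts begin. Its fold enrichment was 4.76 in NS DMSO, 5.73 in SW DMSO, 4.83 in NS rottlerin and 5.79 in SW rottlerin. Both SW-labelled lists lay above both NS-labelled lists. In SW DMSO and SW rottlerin its score ranked above 94.5% and 94.3% of the peaks of the list, and in NS DMSO and NS rottlerin above 82.5% and 85.6%. The upstream group of starts, of 3 coding transcripts at chr20:50179168-50179370, had no region nearer than 20.8 kb.

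Inside *NFATC2*, the region at +62.4 kb (intron 3) had a peak in every list except NS DMSO, with fold enrichments of 5.32 in SW DMSO, 3.94 in NS rottlerin and 5.06 in SW rottlerin. The region at +34.0 kb (chr20:50145268-50145512, intron 1) was found only in the SW-labelled lists, at 3.61 and 4.28, and held 1 NFAT core and 1 AP1 sequence. In the first, both SW-labelled values lay above the NS rottlerin value, and in the second no NS-labelled peak was called.

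A further 5 *NFATC2* regions had peaks in the rottlerin-labelled lists alone. The strongest, at +131 kb (chr20:50047910-50048231, intron 9), had fold enrichments of 5.14 in NS rottlerin and 4.64 in SW rottlerin. At +50.0 kb (chr20:50129259-50129509, intron 3) they were 3.78 and 4.31. The others, at +64.9 kb (chr20:50114094-50114862), +91.6 kb (chr20:50087573-50087869) and +160 kb (chr20:50018846-50019046), had values between 2.60 and 3.25, and none of their peaks was among those kept with lists of equal length. The last 4 regions, at -37.5 kb (chr20:50216754-50216977, the last exon of *ATP9A*), -32.3 kb (chr20:50211614-50211821, intergenic), +81.3 kb (chr20:50097974-50098187, intron 3) and +105 kb (chr20:50073835-50073995, intron 5), had SW rottlerin peaks alone, of 3.76, 2.92, 3.38 and 2.85. The peak at +105 kb had a q-value of 0.0664, above the cut-off of 0.05 named in the study's methods.

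*NFATC3* (ENSG00000072736, chr16:68118654-68263162, plus strand) encodes a further calcineurin-dependent factor, abundant in thymocytes and T cells. Of the 9 *NFATC3* regions, 5 had an NS DMSO peak, a share near the 46.5% of all merged regions. The other NFAT genes had a smaller share, with 2 of 11 at *NFATC1*, 1 of 12 at *NFATC2* and 0 of 4 at *NFAT5*. The *NFATC3* count rests in part on weak peaks. With only peaks of q at most 0.01, it was 3 of 8. The counts were then 2 of 10 at *NFATC1*, 1 of 11 at *NFATC2* and 0 of 3 at *NFAT5*. In the full lists, 4 *NFATC3* regions had an SW DMSO peak, 6 an NS rottlerin peak and 8 an SW rottlerin peak. The regions lay around and before the start of the gene: 6 were upstream, and 5 of these were inside *DUS2*, the neighbouring gene that encodes a tRNA-modifying enzyme, so that their assignment to *NFATC3* rests on distance alone.

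The region at the *NFATC3* TSS (chr16:68118490-68119401, 912 bp, over the start of the gene record) had a peak in all lists, with fold enrichments of 3.12 in NS DMSO, 3.13 in SW DMSO, 4.15 in NS rottlerin and 3.88 in SW rottlerin. Both rottlerin-labelled values lay above both DMSO-labelled values. At -4.76 kb (chr16:68113588-68114201) the fold enrichment was 2.56, 3.38, 3.13 and 4.26 in the same order, with the higher value in SW within each pair of labels. At -9.75 kb (chr16:68108744-68109057, intron 13 of *DUS2*) it was 4.51, 3.50, 4.34 and 3.80, the opposite order, with NS above SW in each pair. These neighbouring regions, 4.99 kb apart, therefore differed between the labels in opposite directions.

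The highest fold enrichment among all 38 regions was found at -24.8 kb from *NFATC3* (chr16:68093712-68094073, intron 7 of *DUS2*). It was 6.57 in SW rottlerin and 3.32 in NS rottlerin, and neither DMSO-labelled list had a peak. The NS rottlerin peak was weak, with a score of 19 (10 times the −log10 of the q-value) against 137 in SW rottlerin. Its centre held 2 NFAT cores, as did that of the region 3.00 kb closer to the gene, at -21.8 kb (chr16:68096758-68097034, intron 8 of *DUS2*), which had 3.90 in NS DMSO, 4.67 in NS rottlerin, 5.31 in SW rottlerin and no SW DMSO peak. The regions at -14.6 kb (chr16:68103952-68104191, exon 11 of *DUS2*) and -44.0 kb (chr16:68074538-68074699, intron 3) lacked DMSO-labelled peaks. The first had 3.55 in NS rottlerin and 3.78 in SW rottlerin, and the second 3.50 in SW rottlerin alone.

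Inside *NFATC3* only 2 regions lay beyond the start. At +9.18 kb (chr16:68127690-68127979, intron 1) both SW-labelled lists had a peak, of 3.85 and 3.45, and neither NS-labelled list did. At +98.6 kb (chr16:68217130-68217432, intron 8) the only peak was that of NS DMSO, with a fold enrichment of 2.93 and a q-value of 0.0400. It was the single region of the 38 found in NS DMSO and nowhere else.

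*NFAT5* (ENSG00000102908, chr16:69598997-69738569, plus strand) had 4 regions and no NS DMSO peak in any. The TSS of the gene record lay between a promoter region at -0.913 kb (chr16:69597871-69598298), found in SW rottlerin alone with a fold enrichment of 4.04, and a region at +0.799 kb (chr16:69599680-69599913), found in NS rottlerin and SW rottlerin with 3.32 and 3.12. The second covers the start of the canonical coding transcript and a microRNA gene, *MIR1538*, whose start is 25 bp from its mid-point. At neither place did a DMSO-labelled list have a peak. Both distal regions did: that at -34.3 kb (chr16:69564538-69564886, intergenic) had peaks in SW DMSO and SW rottlerin, of 4.04 and 4.00, and that at -44.2 kb (chr16:69554575-69555109, intergenic) had an SW DMSO peak alone, of 2.95. The former held 2 AP1 sequences, the second of them directly followed by an ETS sequence in the bases printed above. Beyond the region at +0.799 kb the body of *NFAT5* held no region in any list.

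*RCAN1* (ENSG00000159200, chr21:35885440-35987412, minus strand) had 2 regions, both upstream. The promoter region at -0.247 kb (chr21:35987528-35987791), within 1 kb of the start of ENSG00000288711 too, was found in all lists, with fold enrichments of 2.95 in NS DMSO, 3.93 in SW DMSO, 3.11 in NS rottlerin and 3.93 in SW rottlerin. The SW-labelled values nearly coincided and lay above the NS-labelled pair, and the scores were 47, 109, 57 and 107. The second region, at -15.6 kb (chr21:36002936-36003137, intergenic), had no DMSO-labelled peak, 3.47 in NS rottlerin and 4.96 in SW rottlerin. Its 202 bases held 2 NFAT cores, whereas the promoter region held none.

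The body of *RCAN1* held no region in any of the lists. The internal starts, which include the promoter that NFAT is known to act on, lay 55.1 kb (1 coding transcript), 88.3 kb (3 coding transcripts) and 89.8 kb (3 coding transcripts) from the nearest region. At the depth of these libraries no accessibility peak was therefore called at an internal start, under stimulus-withdrawal labels or NS labels.

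Fold enrichment can be compared between lists only where both have a peak, which gave 21 ratios to NS DMSO over 8 regions. The median ratio was 1.14 in SW DMSO (6 regions), 1.19 in NS rottlerin (8 regions) and 1.24 in SW rottlerin (7 regions), against 0.980, 1.04 and 1.06 over all such regions. Values lay above NS DMSO in 5 of 6, 7 of 8 and 5 of 7 regions, against 45.1%, 58.7% and 63.2% of all. No region of the 5 genes was 1.5-fold higher in SW DMSO (all regions 1.67%) or NS rottlerin (3.19%), none was 1.5-fold lower in any list (2.18%, 1.38% and 1.54%), and 1 of 7 was higher in SW rottlerin (4.5%). That region was the one at -4.76 kb from *NFATC3*, at 1.66-fold. Its NS DMSO peak was weak, with a score of 17, above 6.18% of the peaks of that list. The *RCAN1* promoter region had ratios of 1.33, 1.05 and 1.33, and the *NFATC2* region at +21.4 kb of 1.20, 1.02 and 1.22. The ratios have no error, because there is 1 library for each list.

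**Figure D3:**
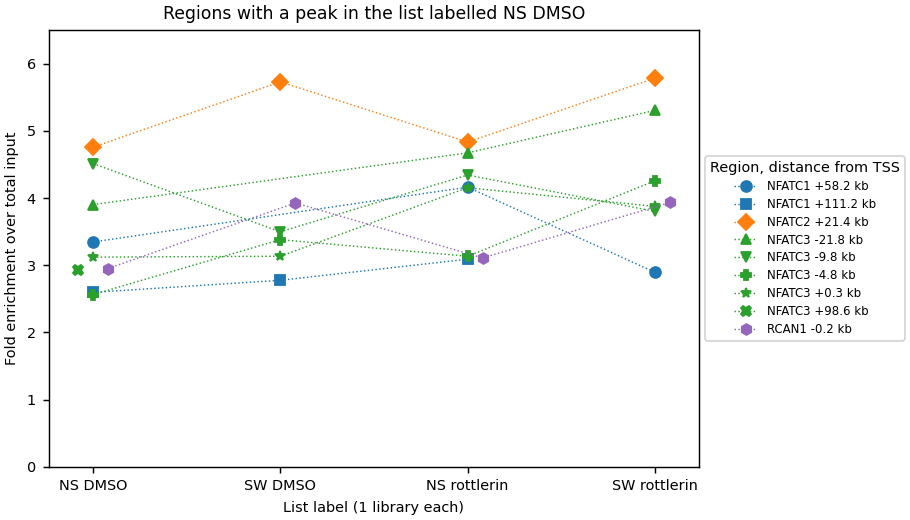
Fold enrichment over the total input, from 0, in the 4 lists for the 9 regions with an NS DMSO peak, each point 1 library and dotted lines joining lists with a peak. The *NFATC2* region at +21.4 kb and the *RCAN1* promoter region are higher in both SW-labelled lists than in the NS-labelled ones, while the *NFATC3* region at -9.75 kb is lower. The points for *RCAN1* and *NFATC3* +98.6 kb are set apart sideways where they coincide.

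Between the rottlerin-labelled lists, 13 of the 20 regions with both peaks had the higher fold enrichment in SW (65%), against 57% of all such regions. At *RCAN1* both regions did, at *NFATC1* 3 of 4, at *NFATC2* 4 of 7, at *NFATC3* 4 of 6 and at *NFAT5* 0 of 1. Peaks at these genes had a lower median fold enrichment than all regions in each list. It was 3.12, 3.61, 3.45 and 3.91 in NS DMSO, SW DMSO, NS rottlerin and SW rottlerin, against 4.06, 4.03, 4.09 and 4.03 for all regions. The list labelled SW rottlerin came closest to the level of all regions. Median scores were 45, 47, 48 and 56.5 in the same order, against 57, 54, 57 and 53, so the SW rottlerin score was above that of all regions. By the highest fold enrichment of each region, the median without an NS DMSO peak was 3.91, against 3.79 for all such regions. With an NS DMSO peak it was 4.16, against 4.61.

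The NFAT core itself was present in the central 300 bp of 11 of the 38 regions (28.9%), against 28% of all. The count depended on the window: it was 19 (50%, against 40.9%) in the central 500 bp and 14 (36.8%, against 32.5%) over the whole region. The AP1 sequence was in 12 (31.6%), against 17.9%, and an ETS sequence in 22 (57.9%), against 48.9%. All 12 regions with an AP1 sequence were among the 29 without an NS DMSO peak and none among the 9 with one, where the shares over all regions were 25.8% and 8.85%. The NFAT core was in 8 of the 29 and 3 of the 9 (all regions 32.9% and 22.3%), and an ETS sequence in 15 and 7 (49.7% and 47.9%). Sequences of other lymphocyte factors were sought as well. AGATAA, bound by GATA factors, was in 6 regions (15.8%, against 21%). TGTGGT, bound by RUNX factors, was in 10 (26.3%, against 32.8%). CACCTG, bound by bHLH factors, was in 9 (23.7%, against 21.4%), and the NFkB sequence in none (against 0.504%). No match shows that a factor was bound.

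**Figure D4:**
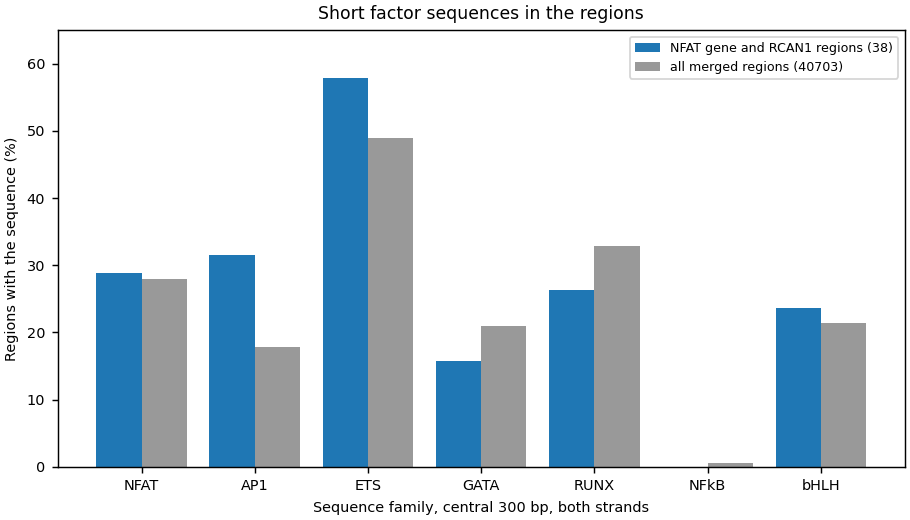
Share of regions (%) whose central 300 bp hold each short sequence on either strand, for the 38 regions at the NFAT genes and *RCAN1* and for all 40703 regions. The AP1 bar is higher at these genes (31.6% against 17.9%), the NFAT bars are close (28.9% and 28%, but 50% and 40.9% in the central 500 bp), and no region at these genes holds the NFkB sequence.

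The sequences were spread unevenly over the genes. AP1 was in 6 of 12 *NFATC2* regions, 3 of 4 *NFAT5* regions, 2 of 11 *NFATC1* regions, 1 of 9 *NFATC3* regions and neither *RCAN1* region. NFAT cores were in 5 *NFATC2*, 3 *NFATC3*, 2 *NFATC1* and 1 *RCAN1* region and in no *NFAT5* region. At least 2 AP1 sequences stood in 4 regions, 3 of them at *NFATC2* and 1 at *NFAT5* (all regions 2.54%). At least 2 NFAT cores also stood in 4 regions (all regions 5.34%), printed above for *NFATC1* +128 kb, *NFATC3* -24.8 kb and *RCAN1* -15.6 kb, the last being *NFATC3* -21.8 kb. Both sequences together were in the 300 bp window of 2 regions (all regions 5.66%), at *NFATC2* +34.0 kb and *NFATC2* +105 kb. The latter region is 161 bp wide, so its window runs past the called stretch. An NFAT core and an ETS sequence shared 7 regions (all regions 12.9%), 3 of them at *NFATC2*.

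Of the 26 other genes of the calcium, calcineurin and NFAT pathway that were listed, all had regions, 187 in total. No NS DMSO peak was present in 89 (47.6%, against 53.5% of all regions and 76.3% at the 5 genes), and 56 (29.9%, against 26.6%) had a peak in all lists. At the TSS, 21 genes had a region, and 16 of these had it in every list, among them the calcineurin subunit genes *PPP3CA* and *PPP3CB*. For scale, 9056 of 20163 protein-coding genes had a TSS region in the comparison under other observations. The share with a TSS region in every list was not counted over all genes, so the 16 have no background. *NFATC4* (NS rottlerin alone, 3.23) and the calcineurin subunit gene *PPP3CC* (3.40, 3.65 and 3.72 in the other lists) lacked the NS DMSO peak there. *ITPR3*, encoding a calcium release channel, had it in NS DMSO alone (3.74), and the *RCAN1* paralogue *RCAN3* had 3.66 in NS DMSO, none in SW DMSO, 3.67 in NS rottlerin and 5.33 in SW rottlerin. *NRON*, *PPP3R1*, *ORAI2*, *RCAN2* and *AKAP5* had no region within 1 kb of the TSS.

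Regions in every list except NS DMSO numbered 11 in that pathway (5.88% of its regions, against 7.08% of all regions). Of these, 4 were at *STIM1*, which encodes the calcium sensor of the endoplasmic reticulum and held 22 of the 187 regions, and 3 at *ORAI1*, the channel it opens, which held 10. *NFATC2IP*, *PPP3CC*, *ITPR1* and *CSNK1A1* had 1 each. At *ORAI1*, the region at +0.999 kb from the TSS (chr12:122065210-122065617) had fold enrichments of 4.77 in SW DMSO, 3.60 in NS rottlerin and 6.09 in SW rottlerin. At *STIM1*, the region at +6.21 kb (chr11:3881613-3882329) had 5.11, 3.31 and 4.56. Among the 5 genes, such regions were those at *NFATC1* +128 kb and *NFATC2* +62.4 kb.

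The labelled cell type was checked at the TSS of marker genes. A peak in at least 1 list was present at 7 of 8 T cell genes (all but *CD2*), and at 0 of 3 B cell and 0 of 3 myeloid genes. Only 2 of the 8, *CD3D* and *CD3E*, had a peak in every list. *CD3G* had one in NS DMSO alone and *LAT* in the rottlerin-labelled lists alone. *CD247* and *ZAP70* lacked the NS DMSO peak, and *LCK* the NS rottlerin peak. For scale, 9056 of 20163 protein-coding genes had a TSS region in the comparison under other observations.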

How the data were processed

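Per the labels and the study's methods, the authors trimmed reads with cutadapt, used Bowtie2 for mapping to hg19 and Picard for duplicate removal, and ran MACS2 for broad peaks of each sample over the total input. Versions were not given in the sources used here. The deposited lists hold the position of a peak, a score (the −log10 q-value times 10, cut to a whole number), the fold enrichment over the total input as a ratio, and −log10 p-values and q-values; all were used as the authors deposited them. Peaks with q above 0.05 numbered 207, 163, 217 and 427 in the lists labelled NS DMSO, SW DMSO, NS rottlerin and SW rottlerin, and were kept. Sequencing depth is unknown, so no counting interval is given.

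Peaks that overlapped or touched were merged, and 28 of 40731 regions, outside chromosomes 1 to 22, X and Y, were dropped. A region took the highest fold enrichment among its peaks in each list. Genes, transcripts and TSSs came from GENCODE release 44 on GRCh37; the canonical transcript is that tagged in GENCODE. A mid-point counted as UTR, then exon, then intron, then promoter (up to 1 kb before any TSS), then upstream (up to 10 kb), and otherwise as intergenic. Short sequences were sought on both strands in the central 300 bp, a window that runs past the called stretch in narrower regions. For each gene with a region within 1 kb of its TSS, the 3 protein-coding genes most like it were those with the smallest Euclidean distance in log2(fold enrichment + 1) over the 4 lists, 0 standing for no peak. Shares are set beside those of all merged regions, and no test was made, since each list is 1 library. Alternatives changed the joining of peaks, the q-value, the number of peaks, the window, the ratio and the sequence window, or left out a list.

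The 5 genes and the lists of genes and sequences were chosen with earlier results of these data known. All regions of the 5 genes are named. Genes of the pathway list are named where a region lacked only the NS DMSO peak, or where presence at the TSS differed between lists or was missing, except 1 gene that, like 1 region's sequence, is not reported here; the named *PPP3CA*, *PPP3CB*, marker genes and neighbouring genes were added as examples after their values were seen. Merging and sequence searches were tested on simulated data. Python 3.11.15, pysam 0.24.0, numpy 2.4.6, matplotlib 3.10.9 and samtools 1.23.1 were used.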

Additional observations from a re-analysis of the deposited data

Results flagged for a closer look

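At the *NFATC3* TSS region (chr16:68118490-68119401), present in all lists, the SW and NS labels differed in opposite directions within the pairs of lists. The fold enrichment was 0.014 higher in SW than in NS under the DMSO labels (3.13 against 3.12). Under the rottlerin labels it was lower in SW, with a difference of -0.278 (3.88 against 4.15). Each value is 1 library, and the difference between the pairs was not tested.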

How the results depend on the processing

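Of 36 values of 5 results under alternatives, 31 stayed within 1.5 times. Limiting the window to 50 kb of the TSS, without gene bodies, left 22 regions, 16 of them without an NS DMSO peak (72.7%, against 53.5% of all), because *NFATC1* and *NFATC2* hold their regions inside the gene. Both higher ratios tried, up to 2, left 0 regions past the fold in place of 1. In the central 500 bp, 19 regions (50%, against 40.9% of all) held an NFAT core, in place of 11. Leaving out 1 list gave 28 to 37 regions in place of 38, the fewest without SW rottlerin, where 19 of 28 (67.9%, against 43.3% of all) had no NS DMSO peak. With the starts of all transcripts, *NFAT5* had 6 regions, 2 of them with an NS DMSO peak. No paired analysis was possible because each list is 1 library. Without replicates, counts or depth, a missing peak cannot be told from one just under the calling threshold.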

Other observations

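Genes whose TSS regions most resembled those of the 4 genes with such a region were sought among 9056 protein-coding genes, by distance in log2(fold enrichment + 1) over the 4 lists. For *NFATC1*, with a peak in SW rottlerin alone, they were *TBC1D14* (distance 0.001), *ZUP1* (0.002) and *SMKR1* (0.005). For *NFATC3* they were *TMA16* (0.062), *PTP4A2* (0.070) and *GK5* (0.075). For *NFAT5* they were *PHETA1* (0.009), *SNN* (0.023) and *EGLN3* (0.023). For *RCAN1* they were *DPH6* (0.073), *CLTRN* (0.076) and ENSG00000285602 (0.076), the last sharing its region with *CLTRN*. *DPH6* had fold enrichments of 2.91, 3.98, 2.93 and 3.86 in NS DMSO, SW DMSO, NS rottlerin and SW rottlerin. *NFATC2* had no region within 1 kb of the TSS of its gene record. The distances rest on 4 values each, 0 standing for no peak, and carry no p-value. For *NFATC1* only the SW rottlerin value of 4.03 is above 0, so its small distances mean the same pattern and a similar value in that list. The *NFAT5* values come from different regions. That at +0.799 kb gave 3.32 in NS rottlerin, and that at -0.913 kb gave 4.04 in SW rottlerin.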
